A study of Mus musculus with 14 samples.

Results

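The genes described here are the members of cytochrome P450 families 1 to 4, taken as every gene symbol made of Cyp, a family number from 1 to 4, a subfamily letter and a member number, with the row of highest mean kept where a symbol had several rows. This gave 69 of the 20377 symbols of the table, in 21 subfamilies, with 3 members in family 1, 44 in family 2, 7 in family 3 and 15 in family 4. A further 11 symbols of the same families had another form, 6 of them pseudogenes, and stayed out. Of the 69 members, 47 reached 1 RPKM in at least 4 libraries and were tested, 22 were not, and 2 (Cyp2b23 and Cyp2w1) were listed at 0 in every library.

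The study sorted liver cells of adult C57BL/6 mice by flow cytometry. These mice were chimeras, in which donor hepatocytes carried the red fluorescent protein mTomato and the host's own biliary cells did not. All mice were given DDC at 0.1% over 5 to 8 weeks, and no untreated group was measured. DDC (the dihydrocollidine compound 3,5-diethoxycarbonyl-1,4-dihydrocollidine) disturbs porphyrin metabolism, injures bile ducts and also damages P450 haem. Ductal cells were positive for the surface marker MIC1-1C3, negative for CD11b, CD26, CD31 and CD45 and low in side scatter. Those carrying mTomato formed the hepatocyte-derived ductal group (n = 5), those without it the host, cholangiocyte-derived ductal group (n = 5), and hepatocytes formed the third (n = 4). The labels do not say whether these hepatocytes carried mTomato, what sex the mice were, or whether libraries of a group came from separate mice, so p-values measure the spread between these samples, which may be partly technical. Libraries are called by the number in their column name, and values are given in the order 219, 220, 225, 248 and 611 for hepatocyte-derived ductal cells, 118, 219, 220, 225 and 611 for cholangiocyte-derived ductal cells, and 118, 225, 248 and 611 for hepatocytes. No sample title carries 220, and a title of each ductal group carries a number that no column has.

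Cytochrome P450 enzymes are haem proteins of the endoplasmic reticulum that insert oxygen into small molecules, using electrons passed on by P450 oxidoreductase. Families 1 to 3 oxidise drugs, toxins and steroids, and in the liver they are known as products of hepatocytes. Many of them are induced through the receptors AHR, CAR and PXR. Family 4 and the Cyp2j, Cyp2s and Cyp2u subfamilies act chiefly on fatty acids and their eicosanoid derivatives, and Cyp2r1 hydroxylates vitamin D. Mouse subfamilies were enlarged by gene duplication, so that neighbours can be nearly identical and short reads may not tell them apart.

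The Cyp2a genes show how close such copies are. The coding sequences of Cyp2a4, which hydroxylates testosterone, and Cyp2a5, which hydroxylates coumarin, are 1482 bases each in the GENCODE vM21 transcripts and differ at 23 positions (98.4% identity). Their longest identical stretch is 216 bases, longer than a short read. The 60 bases shown are coding bases 596 to 655 counted from the A of the start codon, on the + strand of GRCm38 across an intron, and capitals mark the 4 positions at which the copies differ. For Cyp2a4 the stretch lies within chr7:26309030-26310706 and for Cyp2a5 within chr7:26837193-26838868.
Cyp2a4: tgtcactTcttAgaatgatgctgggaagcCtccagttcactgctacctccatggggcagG
Cyp2a5: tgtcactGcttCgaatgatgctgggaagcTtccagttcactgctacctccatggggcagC

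Members also differ in their promoters, and the 7 shown, picked after their values were seen, are examples of those with TATAAA and those rich in CG pairs. RefSeq promoters of GRCm38.p6, 250 bases before to 50 after the start, were matched by symbol for 57 members, taking the first listed promoter of each gene. Printed here are the 80 bases before the start, with TATAAA (or its reverse complement TTTATA) and every CG pair in capitals. The first 4 genes fell strongly in both ductal groups. Cyp2s1 rose, and Cyp4v3 and Cyp2r1 fell less and differed between the ductal groups. The intervals are chr7:26835259-26835338 (+ strand) for Cyp2a5, chr19:39287005-39287084 (+ strand) for Cyp2c29, chr15:82452297-82452376 (+ strand) for Cyp2d9 and chr7:140763739-140763818 (+ strand) for Cyp2e1. They are chr7:25816526-25816605 (− strand) for Cyp2s1, chr8:45333164-45333243 (− strand) for Cyp4v3 and chr7:114562973-114563052 (− strand) for Cyp2r1.
Cyp2a5: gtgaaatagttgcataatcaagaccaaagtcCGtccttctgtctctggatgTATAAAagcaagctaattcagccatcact
Cyp2c29: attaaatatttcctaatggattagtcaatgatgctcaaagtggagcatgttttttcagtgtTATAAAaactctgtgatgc
Cyp2d9: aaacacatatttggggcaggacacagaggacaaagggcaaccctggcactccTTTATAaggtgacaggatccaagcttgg
Cyp2e1: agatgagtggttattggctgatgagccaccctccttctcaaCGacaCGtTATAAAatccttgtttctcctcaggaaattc
Cyp2s1: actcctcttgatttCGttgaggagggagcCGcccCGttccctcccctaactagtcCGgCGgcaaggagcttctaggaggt
Cyp4v3: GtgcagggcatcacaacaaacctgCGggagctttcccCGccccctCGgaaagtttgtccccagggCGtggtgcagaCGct
Cyp2r1: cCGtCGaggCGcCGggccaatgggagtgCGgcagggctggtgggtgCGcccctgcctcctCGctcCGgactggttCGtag

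The TATAAA run of Cyp2a5, Cyp2c29, Cyp2d9 and Cyp2e1 began 29, 19, 28 and 31 bases before the start. Cyp2s1, Cyp4v3 and Cyp2r1 held none in 300 bases and held 17, 17 and 22 CG pairs there, against 2, 2, 1 and 4 in the first 4 genes. The leading capital G of Cyp4v3 completes a CG pair that begins 1 base earlier. TATAAA, on either strand, was found in 26 of the 57 members (45.6%) and in 13.6% of all 32851 promoters of this length. The median was 2 CG pairs over the 57 members and 7 over all promoters. The feature does not follow the calls strictly: Cyp2f2, Cyp2c50, Cyp3a25 and Cyp2b10, which were also lower in both ductal groups, held no TATAAA, and Cyp2j5, which differed between the ductal groups, held it. The core CAAAGTCCA of HNF4 sites, on either strand, was found in 8 of the 57 members and 0.475% of all promoters, the HNF1 core GTTAAT in 8 of the 57 and 7.10%, and the AHR core GCGTG in 21.1% and 32.4%. The 8 members with the HNF4 core were all in Cyp2c (Cyp2c40, Cyp2c65, Cyp2c67, Cyp2c68, Cyp2c69 and Cyp2c70) or Cyp3a (Cyp3a11 and Cyp3a16). Copies made by duplication are not independent, so this share does not describe the families as a whole. Such matches describe letters and were not tested as binding sites.

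The values are the authors' RPKM, reads scaled to transcript length and to the library's mapped reads, which can be compared between genes because length is divided out. They keep no read totals, and the smallest values gave no clear step that would recover reads, so the depth of each library is unknown. Albumin was 29747 to 47947 RPKM in hepatocytes and 3152 to 6810.3 and 2034 to 3215 in hepatocyte-derived and cholangiocyte-derived ductal cells, and the biliary keratin Krt19 was 0.09 to 10.4, 23.4 to 81.8 and 588 to 743, so the ductal groups held both in differing amounts. Krt19 is 1 of 6 listed biliary markers, whose sums were 605 to 1401, 16464 to 19242 and 19712 to 21226.5 RPKM in that order. Between the ductal groups, 3 of the 6 were lower in hepatocyte-derived cells (21.0% of all tested genes were) and 3 were not called. Several libraries stood apart. In the 3 libraries numbered 611, 4 Y-linked genes were at most 0.14 RPKM, against at least 2.82 in the 11 others. Hepatocyte library 118 had a summed macrophage marker level of 896 RPKM against 7.45, 13.5 and 12.3 in the other hepatocytes. Cholangiocyte-derived libraries 118 and 220 had summed stellate and fibroblast markers of 324 and 384 RPKM, against 66, 29.6 and 44.5 in the other libraries of that group. In bulk RNA, fewer cells of a type and less RNA per cell cannot be told apart.

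The members together were more than 10-fold higher in hepatocytes than in either ductal group. Their summed level was 13303, 8686, 8998 and 10985 RPKM in hepatocytes (mean 10493 ± 2132, SD, n = 4). It was 583, 910.0, 819, 708 and 596 in hepatocyte-derived ductal cells (mean 723 ± 142, n = 5) and 959, 515, 887, 887 and 639 in cholangiocyte-derived ductal cells (mean 777 ± 191, n = 5). Every hepatocyte library lay far above every ductal library, and the ductal groups overlapped. The hepatocyte mean was 14.5 times the first ductal mean and 13.5 times the second. As a share of all RPKM in a library the members took 1.74%, 0.15% and 0.166%. Of the 67 members with any signal, 52 had their highest mean in hepatocytes, 9 in cholangiocyte-derived and 6 in hepatocyte-derived ductal cells.

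The leading members also differed between the groups. In hepatocytes 10 members held 81.2% of the summed mean, led by Cyp3a11, Cyp2c29, Cyp2a5, Cyp2e1 and Cyp2f2. In hepatocyte-derived ductal cells the 6 highest means were 90.9 ± 7.66 RPKM for Cyp2j5, 85.6 ± 5.24 for Cyp4v3, 60.4 ± 8.32 for Cyp2d22, 60.1 ± 14.8 for Cyp4f14, 46.1 ± 3.1 for Cyp2j6 and 44.6 ± 5.37 for Cyp4f13. In cholangiocyte-derived ductal cells they were 121 ± 19.2 for Cyp2d22, 80.2 ± 4.8 for Cyp2j6, 62 ± 48.3 for Cyp3a11, 56.7 ± 40 for Cyp2a5, 56.2 ± 12.3 for Cyp4f14 and 42.7 ± 8.56 for Cyp2j5. Fatty acid enzymes of the Cyp2j and Cyp4f subfamilies thus stood among the highest in both ductal groups, below the drug-metabolising members in hepatocytes.

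**Figure D1:**
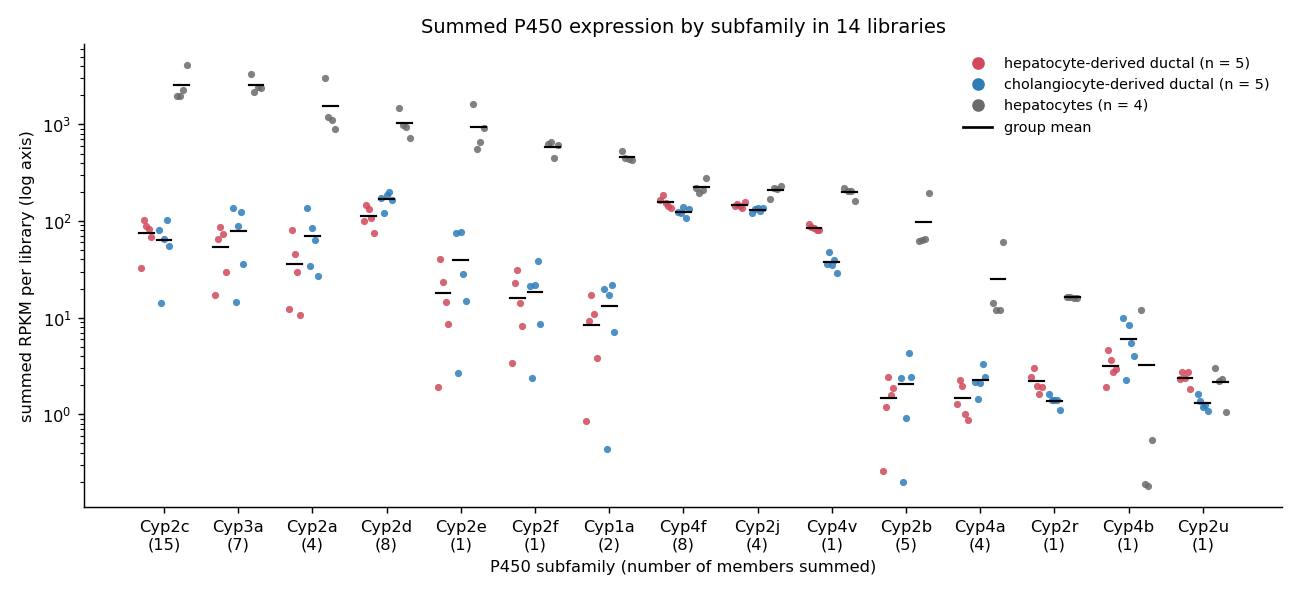
Summed RPKM of the 15 subfamilies plotted (log axis), 1 point per library, with the group mean as a line and the number of members under each name. Hepatocytes lie far above both ductal groups for Cyp1a, Cyp2a, Cyp2b, Cyp2c, Cyp2e, Cyp2f and Cyp3a, and within 2-fold of them by mean for Cyp2j and Cyp4f. The 6 other subfamilies, Cyp2s among them, are not drawn.

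Comparing hepatocyte-derived ductal cells with hepatocytes addresses how far cells of hepatocyte origin differ from hepatocytes once they carry the ductal surface markers. Here 36 tested members were lower (14.8% of all tested genes were), 5 were higher (66.2% of all tested genes were) and 6 were not called (limma on log2(RPKM + 1), Benjamini-Hochberg adjusted p under 0.05). In either direction 81.0% of all tested genes were called. The 5 higher members were Cyp1b1, Cyp2j9, Cyp2s1, Cyp4f16 and Cyp4f17. The median log2 fold change was -2.45 over the tested members and 0.67 over all tested genes, so most genes stood higher in ductal cells on this scale. Of the 36 lower members, 7 (Cyp2a22, Cyp2c38, Cyp2d12, Cyp2d40, Cyp3a59, Cyp4a10 and Cyp4a14) entered the test only through their hepatocyte libraries and had to differ. Without them, 29 of 40 were lower. Library values did not overlap for 40 of the 47, against 72.2% of all tested genes. The 7 members just named are among the 40 and could not overlap, given how they entered the test.

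Cholangiocyte-derived ductal cells against the same hepatocytes gave 36 lower members (17.4% of all tested genes), 8 higher (67.1%) and 3 not called, with 84.4% of all tested genes called in either direction. The 8 higher members were the 5 just named together with Cyp2d22, Cyp2j6 and Cyp4b1. The medians were -2.85 over the tested members and 0.76 over all tested genes, and 29 were lower without the 7 that entered through hepatocytes alone. Values did not overlap for 40 members, those 7 again among them by the way they entered, against 75.2% of all tested genes. Both comparisons use the same hepatocyte libraries and are therefore not independent. Rescaling the libraries by median ratios, which brought the median of all tested genes to 0.01 and 0.05, left 3 higher members in the hepatocyte-derived comparison (Cyp1b1, Cyp2s1 and Cyp4f16) and Cyp2s1 alone in the cholangiocyte-derived one, where the signs of Cyp2d22, Cyp2j6 and Cyp2j9 turned.

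Family 1 held the members with opposite patterns. Cyp1a2, the constitutive liver enzyme of caffeine and aromatic amine oxidation and an AHR target, was 531, 451, 441 and 427 RPKM in hepatocytes. It was 0.81, 9.16, 16.9, 10.8 and 3.85 in hepatocyte-derived and 19.7, 0.41, 17.2, 21.8 and 7.06 in cholangiocyte-derived ductal cells. All ductal libraries lay far below all hepatocyte libraries, and library 219 was the lowest of both ductal groups. The log2 fold change was -6.01 ± 0.77 (SE, adjusted p = 4.47e-06) and -5.54 ± 0.77 (adjusted p = 8.99e-06). Cyp1a1, the inducible partner that is low in uninduced liver, was 1.36, 1.26, 1.47 and 0.51 RPKM in hepatocytes, 0.05, 0.01, 0.08, 0.12 and 0 in hepatocyte-derived and 0.11, 0.03, 0.04, 0.06 and 0.07 in cholangiocyte-derived ductal cells, and was not tested.

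Cyp1b1, an enzyme known mainly from tissues outside the liver that oxidises oestrogens and aromatic hydrocarbons, was instead highest in hepatocyte-derived ductal cells, at 2.58, 1.69, 1.66, 3.3 and 5.45 RPKM. It was 0.83, 1.09, 0.86, 0.15 and 0.27 in cholangiocyte-derived ductal cells and 0.15, 0, 0.03 and 0.04 in hepatocytes. The hepatocyte-derived libraries lay above all others, while the other groups touched at 0.15 RPKM. The difference was 1.82 ± 0.25 (adjusted p = 7.94e-06) from hepatocytes and 1.22 ± 0.23 (adjusted p = 7.68e-04) from cholangiocyte-derived cells. The smaller one between cholangiocyte-derived cells and hepatocytes, 0.60 ± 0.25 (adjusted p = 0.0346), turned to -0.18 under quantile normalization. It was also lost on leaving out hepatocyte library 225, 248 or 611 (adjusted p = 0.0704, 0.0651 and 0.0628) or cholangiocyte-derived library 118, 219 or 220 (adjusted p = 0.0695, 0.0818 and 0.0716).

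The Cyp2a subfamily was led by Cyp2a5, whose 4 hepatocyte values were 2495, 906, 875 and 264 RPKM, highest in library 118 and lowest in library 611. It was 9.47, 61.5, 33.3, 22.1 and 3.37 RPKM in hepatocyte-derived and 118, 32.8, 73.1, 44.8 and 15.4 in cholangiocyte-derived ductal cells, with no overlap with hepatocytes (log2 fold changes -5.51 ± 0.79 and -4.19 ± 0.79). Cyp2a12 was 316, 269, 215 and 389 in hepatocytes, 2.58, 12.2, 11, 6.1 and 4.98 in hepatocyte-derived and 12.2, 1.24, 9.77, 14.8 and 5.26 in cholangiocyte-derived ductal cells. All 4 members of the subfamily were lower in both ductal groups and none was called between those groups. Of the 4, Cyp2a22 entered the test through hepatocytes alone and had to differ. Because Cyp2a5 and Cyp2a4 share 40.8% and 38.8% of their 50-base windows with other genes (31.0% and 36.1% with each other), the division of reads between them is uncertain. The subfamily sum depends on it less. It still shifts with their transcript lengths, 2013 and 1738 bases in GENCODE, and with reads given to genes outside the subfamily. That sum was 1552 ± 979 RPKM in hepatocytes, 35.8 ± 28.8 in hepatocyte-derived and 69.2 ± 44.3 in cholangiocyte-derived ductal cells.

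Cyp2b10, the standard target gene of the receptor CAR, was 62.1, 63.5, 64.7 and 111 RPKM in hepatocytes, with library 611 the highest. It was 0.26, 1.01, 2.4, 1.53 and 1.05 in hepatocyte-derived and 2.33, 0.2, 0.9, 4.08 and 1.13 in cholangiocyte-derived ductal cells, again without overlap (-5.11 ± 0.37 and -4.94 ± 0.37). Cyp2b9 was 0.35, 0.15, 0.38 and 82.4 RPKM in hepatocytes, so that 1 library supplied nearly all of it. It was 0, 0.16, 0.02, 0.07 and 0.84 in hepatocyte-derived and 0.07, 0, 0.02, 0.26 and 1.25 in cholangiocyte-derived ductal cells, and was not tested. The summed Cyp2b level of hepatocytes was 96.7 ± 65.8 RPKM with library 611 and 63.8 without it.

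Cyp2c was the largest subfamily, with 15 members, of which 10 were tested and all 10 were lower in both ductal groups. Of the 10, Cyp2c38 entered the test through hepatocytes alone and had to differ. Cyp2c29, a major liver form, was 1153, 1129, 1385 and 2174 RPKM in hepatocytes, 0.58, 17.8, 32, 36.4 and 18.1 in hepatocyte-derived and 44.8, 0.46, 30.7, 59 and 29.3 in cholangiocyte-derived ductal cells. Its log2 fold changes of -6.58 ± 1.04 (adjusted p = 3.79e-05) and -6.08 ± 1.04 (adjusted p = 7.13e-05) were among the most negative of all members, with library 219 lowest in both ductal groups. Cyp2c70, which makes the muricholic acids found in mouse bile, was 353, 486, 529 and 969 in hepatocytes, 2.03, 13, 16.3, 13.5 and 13.6 in hepatocyte-derived and 14.7, 1.86, 13.4, 23.7 and 12.2 in cholangiocyte-derived ductal cells. Cyp2c68 was 35.8, 27.5, 33.2 and 169 in hepatocytes, 3.56, 11.6, 4.01, 3.62 and 8.6 in hepatocyte-derived and 2.67, 2.56, 2.04, 1.42 and 2.5 in cholangiocyte-derived ductal cells. Both lay without overlap below hepatocytes in each ductal group.

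Cyp2c44, which turns arachidonic acid into epoxides, kept an intermediate level in hepatocyte-derived ductal cells. It was 148, 127, 104 and 152 RPKM in hepatocytes, 25.3, 52.5, 29.4, 24 and 22.8 in hepatocyte-derived and 7.46, 7.58, 7.8, 6.34 and 1.68 in cholangiocyte-derived ductal cells. The 3 groups did not overlap, and hepatocyte-derived cells lay in between, with library 220 the highest of them. The log2 fold changes were -2.13 ± 0.33 (adjusted p = 2.95e-05) and -4.32 ± 0.33 (adjusted p = 1.24e-08) from hepatocytes. Between the ductal groups the difference was 2.20 ± 0.31 (adjusted p = 5.64e-05), the largest positive one of any tested member. The gene lies at chr19:44079512-44103737 (− strand) in mm9, the build of the deposited table.

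In Cyp2d, 5 of 6 tested members were lower in both ductal groups. Of the 5, Cyp2d12 and Cyp2d40 entered the test through hepatocytes alone and had to differ. Cyp2d9, a testosterone hydroxylase known as male-predominant in mouse liver, was 662, 386, 359.8 and 52.3 RPKM in hepatocytes, 10.7, 29.2, 22.2, 14.3 and 2.9 in hepatocyte-derived and 27.7, 6.85, 26.8, 22.8 and 1.89 in cholangiocyte-derived ductal cells. Library 611 was the lowest of each group. Cyp2d26 was 387, 298, 280.2 and 356 in hepatocytes, 5.44, 22.1, 17.2, 8.55 and 7.84 in hepatocyte-derived and 15.7, 2.91, 12.1, 16.3 and 5.17 in cholangiocyte-derived ductal cells. Cyp2d10 was 322, 213, 211 and 244 in hepatocytes and varied less between ductal libraries, at 18.9, 34.6, 26.3, 19.9 and 17.6 in hepatocyte-derived and 22.1, 15.6, 21.2, 26.4 and 19.8 in cholangiocyte-derived cells.

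Cyp2d22 stood outside this pattern. It was 73.3, 78.4, 76.9 and 59.9 RPKM in hepatocytes, 64.8, 61.3, 66.6, 63.4 and 45.9 in hepatocyte-derived and 107, 94.4, 127, 136 and 139 in cholangiocyte-derived ductal cells. The cholangiocyte-derived libraries were above all others, and the remaining groups overlapped. It was 0.73 ± 0.14 higher in cholangiocyte-derived cells than in hepatocytes on the log2 scale (adjusted p = 1.76e-04), which turned negative (-0.10) after rescaling by median ratios. The difference of -0.26 ± 0.14 between hepatocyte-derived cells and hepatocytes was not called (adjusted p = 0.098) and was called lower without hepatocyte library 611 (-0.34, adjusted p = 0.0396) and after rescaling by median ratios (-1.05, adjusted p = 6.88e-06). Between the ductal groups Cyp2d22 was lower in hepatocyte-derived cells (-0.98 ± 0.13, adjusted p = 2.89e-05). It lies at chr15:82200957-82210690 (− strand), and 6.14% of its windows recur in another gene.

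Cyp2e1, which oxidises ethanol and paracetamol, was 1633, 550.2, 650.1 and 908 RPKM in hepatocytes, 1.91, 40.6, 23.5, 14.4 and 8.66 in hepatocyte-derived and 74.8, 2.69, 77.7, 28.1 and 14.9 in cholangiocyte-derived ductal cells. Cyp2f2, which activates naphthalene, was 628, 656, 453 and 611 in hepatocytes, 3.38, 22.7, 31.1, 14.2 and 8.26 in hepatocyte-derived and 21.3, 2.36, 21.7, 38.4 and 8.67 in cholangiocyte-derived ductal cells. Both were without overlap lower in the ductal groups, and neither was called between these. The log2 fold changes of Cyp2e1 were -5.99 ± 0.87 and -5.08 ± 0.87, and those of Cyp2f2 -5.42 ± 0.65 and -5.32 ± 0.65. Cyp2g1 and Cyp2t4 were at most 2.34 and 0.89 RPKM in any library and were not tested. Cyp2g1 was 2.34, 0.76, 0.78 and 1.38 in hepatocytes, 0.03, 0.11, 0, 0.04 and 0 in hepatocyte-derived and 0.02, 0, 0.04, 0.07 and 0 in cholangiocyte-derived ductal cells. Cyp2t4 was 0.03, 0.06, 0.06 and 0.1 in hepatocytes, 0.28, 0.15, 0.47, 0.55 and 0.17 in hepatocyte-derived and 0.25, 0.43, 0.47, 0.89 and 0.39 in cholangiocyte-derived ductal cells.

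Cyp3a11, the main steroid and drug hydroxylase of mouse liver and a PXR target, had the highest hepatocyte mean of all members. Its values were 3092, 1978, 2246 and 2118 RPKM in hepatocytes, 1.87, 38.3, 64.2, 55 and 14.8 in hepatocyte-derived and 113, 1.02, 66.5, 104 and 26.2 in cholangiocyte-derived ductal cells. Ductal libraries differed among themselves by more than 10-fold in each group, with library 219 the lowest in both, and none reached the hepatocyte range. The log2 fold changes were -6.66 ± 1.10 (adjusted p = 5.86e-05) and -6.10 ± 1.10 (adjusted p = 1.19e-04), the first being the most negative of any tested member. Cyp3a25 was 161, 95.6, 101 and 129 in hepatocytes, 0.08, 3.14, 3.17, 2.73 and 0.72 in hepatocyte-derived and 6.73, 0.16, 4.46, 4.91 and 1.72 in cholangiocyte-derived ductal cells. Cyp3a59 was 9.38, 5.92, 6.5 and 11.3 in hepatocytes, 0, 0.23, 0.17, 0.19 and 0.13 in hepatocyte-derived and 0.38, 0, 0.27, 0.53 and 0.08 in cholangiocyte-derived ductal cells. For both genes every ductal library was below every hepatocyte library, and the ductal libraries 219 were the lowest. Cyp3a59 entered the test through hepatocytes alone, so its separation was fixed by the filter.

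Cyp3a13 kept more of its level in ductal cells than the other Cyp3a members by these means. It was 86.6, 71.7, 65.1 and 103 RPKM in hepatocytes, 15.3, 24, 18.4, 15.3 and 14.3 in hepatocyte-derived and 15.5, 13.2, 17.7, 13.8 and 8.04 in cholangiocyte-derived ductal cells, with little spread between ductal libraries. Its log2 fold changes were -2.16 ± 0.20 and -2.51 ± 0.20. None of the 4 tested Cyp3a members was called between the ductal groups.

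The Cyp2j enzymes, which epoxidise and hydroxylate arachidonic acid, had a small gap between the groups in their summed level. Their sum was 209.8 ± 27.8 RPKM in hepatocytes, 146 ± 8.09 in hepatocyte-derived and 131 ± 6.27 in cholangiocyte-derived ductal cells, so that hepatocytes were 1.44 and 1.6 times the ductal means. The members moved in different ways beneath this sum. Cyp2j5 was 118, 169.7, 160.3 and 189 in hepatocytes, 83.8, 91.3, 88.9, 86.7 and 104 in hepatocyte-derived and 33.6, 44.6, 39.9, 39.2 and 56.4 in cholangiocyte-derived ductal cells, in 3 groups without overlap. It was lower than in hepatocytes, with log2 fold changes of -0.79 ± 0.15 (adjusted p = 1.95e-04) and -1.87 ± 0.15 (adjusted p = 1.95e-08), and higher in hepatocyte-derived than in cholangiocyte-derived cells by 1.09 ± 0.14 (adjusted p = 2.36e-05).

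Cyp2j6 had the opposite order. It was 48.4, 47.8, 48.1 and 40.1 RPKM in hepatocytes, 48.6, 47.8, 43.7, 41.9 and 48.4 in hepatocyte-derived and 80.2, 80.3, 87.3, 79.7 and 73.7 in cholangiocyte-derived ductal cells. Every cholangiocyte-derived library was above every other library, and the remaining groups overlapped fully. The difference was 0.79 ± 0.08 (adjusted p = 2.35e-07) from hepatocytes, or -0.04 after rescaling by median ratios, and -0.79 ± 0.07 (adjusted p = 1.10e-06) between the ductal groups. Cyp2j9 was 11, 9.96, 8.95, 8.24 and 5.81 in hepatocyte-derived ductal cells, 6.93, 9.09, 8.13, 9.55 and 5.53 in cholangiocyte-derived ductal cells and 3.66, 4.43, 6.1 and 3.8 in hepatocytes. It was called higher in both, by 0.83 ± 0.18 and 0.69 ± 0.18, though values overlapped, and under quantile normalization the sign turned in both (-0.11 and -0.37). Cyp2j5 and Cyp2j6 share 0.174% and 0.422% of windows with other genes, so their opposite order concerns genes that differ within nearly every stretch of 50 bases.

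Cyp2s1, an epithelial P450 known mainly outside the liver, was the member that most set the ductal groups apart. It was 16.3, 15.1, 17.7, 14.6 and 12 RPKM in cholangiocyte-derived ductal cells, 1.49, 1.03, 0.86, 0.62 and 1.19 in hepatocyte-derived ductal cells and 0.28, 0, 0.01 and 0.06 in hepatocytes. The groups did not overlap, and hepatocyte-derived ductal cells lay between the others. The log2 fold changes were 3.89 ± 0.14 (adjusted p = 5.13e-12) for cholangiocyte-derived cells and 0.90 ± 0.14 (adjusted p = 2.48e-05) for hepatocyte-derived cells, the second falling to 0.29 under quantile normalization, where it was not called (adjusted p = 0.0909). Between the ductal groups it was -2.99 ± 0.13 (adjusted p = 5.58e-10), and the cholangiocyte-derived mean was 14.6 times the hepatocyte-derived one. The gene lies at chr7:26587495-26601549 (− strand), and none of its windows recurs in another gene.

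Cyp2r1, a vitamin D 25-hydroxylase, was 16.5, 16.4, 16.1 and 15.9 RPKM in hepatocytes, 2.45, 2.98, 1.95, 1.64 and 1.9 in hepatocyte-derived and 1.62, 1.39, 1.41, 1.4 and 1.12 in cholangiocyte-derived ductal cells. It was lower in both ductal groups (-2.45 ± 0.11 and -2.85 ± 0.11) and slightly higher in hepatocyte-derived than in cholangiocyte-derived cells (0.40 ± 0.10, adjusted p = 0.00685). Cyp2u1, a fatty acid hydroxylase, was 2.33, 2.74, 2.36, 2.75 and 1.83 in hepatocyte-derived ductal cells, 1.61, 1.36, 1.18, 1.26 and 1.09 in cholangiocyte-derived ductal cells and 3.03, 2.19, 2.34 and 1.05 in hepatocytes. It was 0.56 ± 0.15 higher in hepatocyte-derived than in cholangiocyte-derived cells (adjusted p = 0.00946). Its log2 fold change of -0.42 ± 0.16 in cholangiocyte-derived cells against hepatocytes (adjusted p = 0.0266) was no longer called without hepatocyte library 118, 225 or 248 (adjusted p = 0.0975, 0.0588 and 0.0697) or cholangiocyte-derived library 220 or 611 (adjusted p = 0.0502 and 0.0545).

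The Cyp4a enzymes hydroxylate fatty acids at their end and are textbook targets of PPARα. Cyp4a10 was 7.01, 5.74, 3.91 and 38.9 RPKM in hepatocytes, 0, 0.06, 0.22, 0.11 and 0 in hepatocyte-derived and 0.33, 0, 0.17, 0.5 and 0.49 in cholangiocyte-derived ductal cells. Cyp4a14 was 2.13, 2.64, 4.44 and 16.8 in hepatocytes, 0, 0.02, 0.57, 0.03 and 0.04 in hepatocyte-derived and 0.23, 0, 0.08, 0.61 and 0.54 in cholangiocyte-derived ductal cells. Library 611 was far the highest hepatocyte library for both, and the summed Cyp4a level of hepatocytes was 24.8 ± 24.2 with it and 12.8 without it. Cyp4a31 was 1.83, 1.33, 1.73 and 3.08 in hepatocytes, 0.41, 1.16, 0.67, 0.4 and 0.68 in hepatocyte-derived and 1.35, 1.07, 1.58, 1.77 and 1.16 in cholangiocyte-derived ductal cells. Cyp4a32 was 3.22, 2.43, 1.89 and 2.27 in hepatocytes, 0.86, 1.03, 0.49, 0.46 and 0.16 in hepatocyte-derived and 0.25, 0.37, 0.26, 0.41 and 0.26 in cholangiocyte-derived ductal cells. All 4 members were lower in hepatocyte-derived ductal cells and 3 in cholangiocyte-derived ones, where Cyp4a31 was not called. Of the 4, Cyp4a10 and Cyp4a14 entered the test through hepatocytes alone and had to differ. Cyp4a31 was lower in hepatocyte-derived than in cholangiocyte-derived cells (-0.53 ± 0.16, adjusted p = 0.0166), with overlapping values, and this call was lost without hepatocyte library 118 and cholangiocyte-derived libraries 118 and 220 (-0.49, adjusted p = 0.0819) and under quantile normalization, where the value shrank to -0.12 (adjusted p = 0.526).

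Cyp4b1, known chiefly from lung, was 9.85, 2.28, 8.44, 5.44 and 3.99 RPKM in cholangiocyte-derived ductal cells, 1.9, 4.61, 3.67, 2.73 and 2.92 in hepatocyte-derived ductal cells and 12, 0.19, 0.18 and 0.54 in hepatocytes. The single high hepatocyte value was in library 118, whose macrophage, endothelial and stellate marker sums of 896, 187 and 132 RPKM compare with at most 13.5, 11.9 and 6.75 in the other hepatocyte libraries. The part of those transcripts in the Cyp4b1 value was not tested. With all libraries Cyp4b1 was called higher in cholangiocyte-derived cells (1.48 ± 0.60, adjusted p = 0.0322) and not in hepatocyte-derived ones (0.82 ± 0.60, adjusted p = 0.217). Without hepatocyte library 118 it was called higher in both, by 2.31 (adjusted p = 1.49e-05) and 1.65 (adjusted p = 3.49e-04). The call in cholangiocyte-derived cells was lost on leaving out hepatocyte library 225, 248 or 611 (adjusted p = 0.106, 0.107 and 0.0867) or cholangiocyte-derived library 118, 220 or 225 (adjusted p = 0.0739, 0.0677 and 0.0507).

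The Cyp4f enzymes inactivate leukotrienes and hydroxylate long-chain fatty acids. Their sum was 225 ± 36.3 RPKM in hepatocytes, 157 ± 20 in hepatocyte-derived and 125 ± 12.5 in cholangiocyte-derived ductal cells, 1.44 and 1.8 times as high in hepatocytes as in each. Of the 6 tested members, 2 were higher, 2 lower and 2 not called in each ductal group against hepatocytes. Cyp4f16 was 20.3, 17.2, 17.8, 17.3 and 18.3 in hepatocyte-derived ductal cells, 13.8, 15.8, 15.6, 15.6 and 12.4 in cholangiocyte-derived ductal cells and 8.08, 6.84, 7.52 and 6.27 in hepatocytes. Both ductal groups were above hepatocytes without overlap, by 1.23 ± 0.09 (adjusted p = 1.40e-08) and 0.94 ± 0.09 (adjusted p = 1.91e-07), of which the second call was lost after rescaling by median ratios and under quantile normalization. Cyp4f17 was 11.7, 9.21, 13.1, 14.5 and 9.2 in hepatocyte-derived ductal cells, 9.04, 11, 10.6, 10.2 and 11 in cholangiocyte-derived ductal cells and 3.01, 5.4, 7.95 and 6.47 in hepatocytes (log2 fold changes 0.94 ± 0.19 and 0.82 ± 0.19). Both Cyp4f17 calls were lost after rescaling by median ratios and under quantile normalization, and the second value was -0.15 under the latter. Cyp4f16 shares 25.8% of its windows with other genes, nearly all with Cyp4f37 (24.1%).

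Cyp4f15 and Cyp4f14 were the lower ones. Cyp4f15 was 47.1, 40.3, 50.4 and 62.1 RPKM in hepatocytes, 22.1, 26.2, 20.7, 22.6 and 17.2 in hepatocyte-derived and 7.13, 8.29, 9, 6.97 and 6.31 in cholangiocyte-derived ductal cells, again in 3 groups without overlap and with hepatocyte-derived cells in between (-1.16 ± 0.14, -2.57 ± 0.14 and, between the ductal groups, 1.41 ± 0.13 with adjusted p = 8.96e-07). Cyp4f14, a leukotriene B4 hydroxylase, was 107, 105, 103 and 167 in hepatocytes, 61.1, 84.7, 54.4, 46 and 54.1 in hepatocyte-derived and 56, 48.1, 66.1, 40.5 and 70.3 in cholangiocyte-derived ductal cells, and the ductal groups overlapped. Cyp4f13 differed little between the groups as deposited, at 49, 39.8, 38.6 and 36.2 in hepatocytes, 49.6, 49, 45.1, 42.7 and 36.4 in hepatocyte-derived and 33, 37.6, 36.7, 33.2 and 33.1 in cholangiocyte-derived ductal cells. Its differences from hepatocytes, 0.12 ± 0.10 and -0.22 ± 0.10, were not called. After rescaling by median ratios both were called, at -0.67 and -1.04 (adjusted p = 2.39e-05 and 1.78e-07), as was the second under quantile normalization (-0.50, adjusted p = 9.54e-05). The second was also called without hepatocyte library 611, hepatocyte-derived library 611 or cholangiocyte-derived library 219 (adjusted p = 0.0307, 0.0337 and 0.0495), and the first with library weights (0.18, adjusted p = 0.0136). It was 0.34 ± 0.10 higher in hepatocyte-derived than in cholangiocyte-derived cells (adjusted p = 0.0122).

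Cyp4v3, the mouse counterpart of the human fatty acid hydroxylase CYP4V2, was 222, 203, 205 and 161 RPKM in hepatocytes. It was 93.3, 87.4, 85.6, 80.2 and 81.4 in hepatocyte-derived and 36.1, 47.4, 35.2, 39.8 and 29.1 in cholangiocyte-derived ductal cells. The 3 groups were separate, and the spread within each was small. The log2 fold changes against hepatocytes were -1.19 ± 0.12 (adjusted p = 5.14e-07) and -2.38 ± 0.12 (adjusted p = 2.35e-10), and Cyp4v3 was 1.18 ± 0.12 (adjusted p = 1.85e-06) higher in hepatocyte-derived than in cholangiocyte-derived cells. It lies at chr8:46391156-46418550 (− strand).

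**Figure D2:**
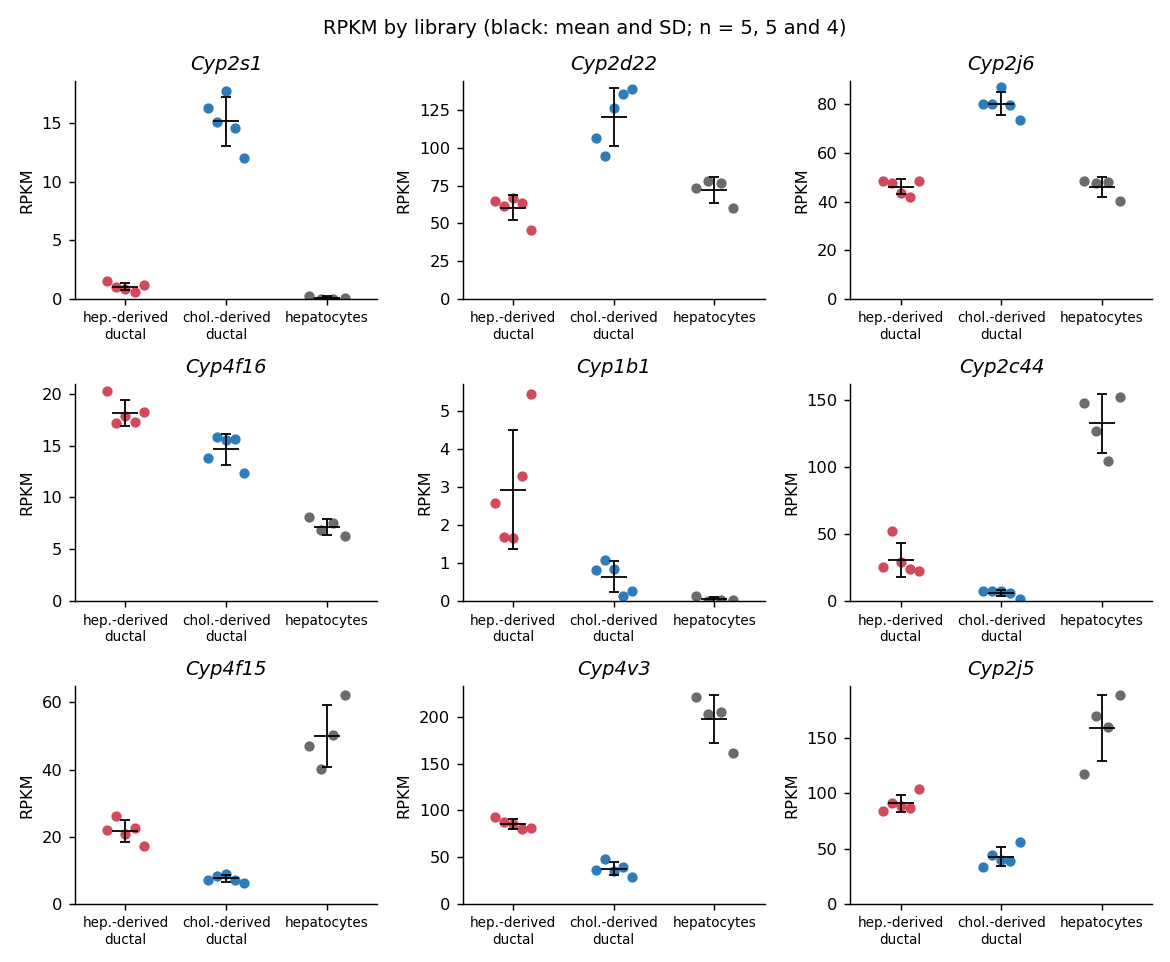
RPKM of 9 members in each library (points), with the mean and SD of each group in black (n = 5, 5 and 4). Cyp2s1, Cyp2d22 and Cyp2j6 are highest in cholangiocyte-derived ductal cells (for Cyp2d22 and Cyp2j6 the sign against hepatocytes turned after rescaling by median ratios), Cyp1b1 and Cyp4f16 in hepatocyte-derived ductal cells, and for Cyp2c44, Cyp4f15, Cyp4v3 and Cyp2j5 hepatocyte-derived ductal cells lie between hepatocytes and cholangiocyte-derived ductal cells.

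The comparison of the ductal groups asks whether cells under one gate differ by origin. Of the 47 tested members, 9 were higher in hepatocyte-derived cells (15.1% of all tested genes were), 4 were lower (21.0%) and 34 were not called, with 36.2% of all tested genes called in either direction. The 9 were Cyp2c44, Cyp4f15, Cyp1b1, Cyp4v3, Cyp2j5, Cyp2u1, Cyp2r1, Cyp4f13 and Cyp4f16, and the 4 were Cyp2s1, Cyp2d22, Cyp2j6 and Cyp4a31. The members called in either direction were 27.7% of those tested, those higher 19.1% and those lower 8.51%. Values did not overlap for 12 members, against 33.8% of all tested genes. The median log2 fold change was -0.08 over the tested members and -0.03 over all tested genes. Of the high-level hepatocyte members, neither Cyp3a11 (-0.55 ± 1.04, adjusted p = 0.726), Cyp1a2 (-0.48 ± 0.72, adjusted p = 0.661), Cyp2e1 (-0.90 ± 0.82, adjusted p = 0.438) nor Cyp2a5 (-1.32 ± 0.74, adjusted p = 0.19) was called between the ductal groups, though Cyp2a5 was called lower with library weights (-1.29, adjusted p = 0.0418) and with the library number as a replicate block. Their standard errors are several times those of the called members, so these comparisons leave room for sizeable differences. Cyp2c68 (1.05 ± 0.43, adjusted p = 0.0742) was not called, though its values did not overlap between the ductal groups. It was called higher in hepatocyte-derived cells without hepatocyte library 611 (adjusted p = 0.00683) or without all libraries 611. The same held with a pseudocount of 0.1, quantile normalization, library weights or the 2-group fit, and not under the other alternatives.

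**Figure D3:**
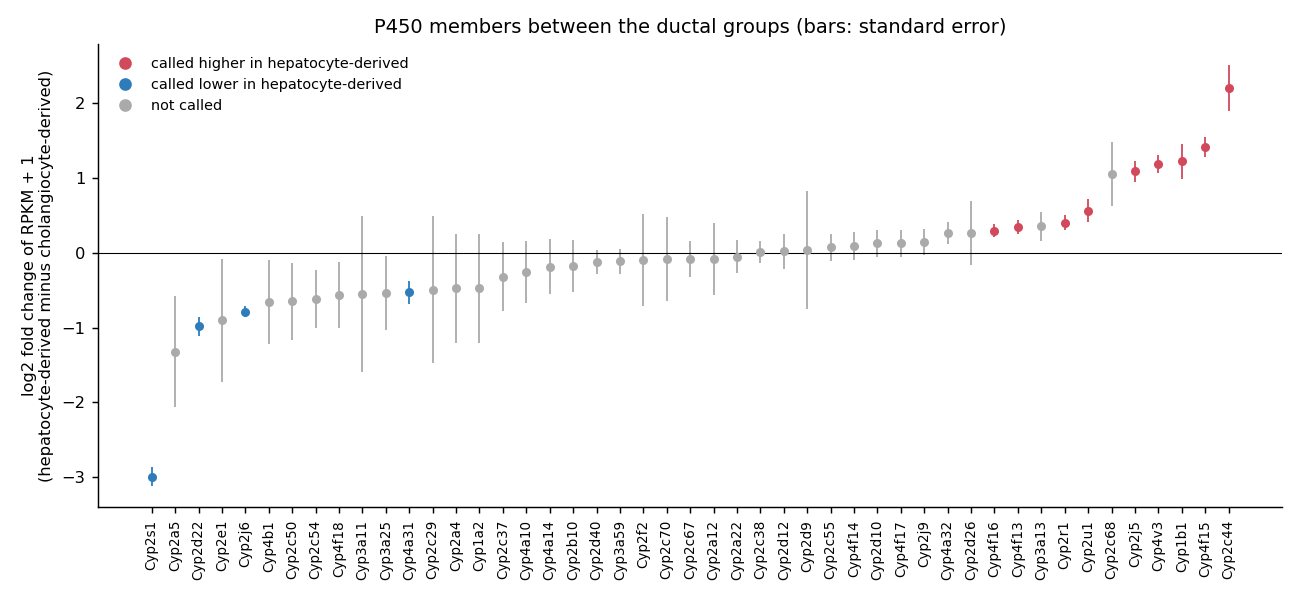
Log2 fold change of RPKM + 1 between the ductal groups (hepatocyte-derived minus cholangiocyte-derived) for the 47 tested members, with standard errors as bars and called members in colour. Cyp2s1 at -2.99 and Cyp2c44 at 2.20 mark the ends, and the uncalled members include those with the widest bars, such as Cyp3a11 and Cyp2c29.

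The ductal levels of the liver-type members varied by library in a shared way. Among the 29 members with a hepatocyte mean of at least 20 RPKM, 10 are described singly. Over the 10 ductal libraries, as a percentage of the hepatocyte mean, Cyp4f13 stood at 80.8 to 121%, Cyp2j6 at 90.8 to 189%, Cyp2d22 at 63.7 to 193%, Cyp4f14 at 33.6 to 70.4%, Cyp2j5 at 21.1 to 65.1% and Cyp4v3 at 14.7 to 47.2%. Cyp4f15 stood at 12.6 to 52.5%, Cyp3a13 at 9.85 to 29.4%, Cyp2d10 at 6.32 to 14% and Cyp2c44 at 1.27 to 39.5%. The median of the other 19 members was 1.39 to 4.11% in 8 ductal libraries, 0.223% in hepatocyte-derived library 219 and 0.266% in cholangiocyte-derived library 219. These sets, chosen after the values were seen, overlap: Cyp2c68, one of the 19, stood at 5.36 to 17.5% in hepatocyte-derived cells, and Cyp2c44 at 1.27 to 5.88% in cholangiocyte-derived cells. Library 219 was the lowest of its group for 17 of the 19 in hepatocyte-derived and 16 of the 19 in cholangiocyte-derived cells.

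Some other values moved with this. The summed macrophage markers were 23.7 RPKM in hepatocyte-derived library 219 against 83.4, 77.3, 103 and 64.9 in the rest of its group. They were 45.1 in cholangiocyte-derived library 219 against 229, 166, 142 and 136. Endothelial markers summed to 1.84 and 4.3 RPKM in the ductal libraries 219, also the lowest of their groups. Stellate and fibroblast markers summed to 9.47 RPKM in hepatocyte-derived library 219, the lowest of its group. In cholangiocyte-derived library 219 they were 66, above the 29.6 and 44.5 of libraries 225 and 611, so they did not move with the dip there. Albumin in hepatocyte-derived library 219 was 8.85% of the hepatocyte mean, compared with 10.4 to 19.1% in the rest of its group. In cholangiocyte-derived library 219 it was 5.71%, compared with 8.05 to 9.03%. The part of RNA from other cells in the low P450 levels was not tested. Without the ductal libraries 219, 5 members were higher and 36 lower in hepatocyte-derived cells, and 8 higher and 36 lower in cholangiocyte-derived cells, than in hepatocytes. Over all 12530 tested genes the counts were 8117 and 1846, and 8228 and 2180.

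**Figure D4:**
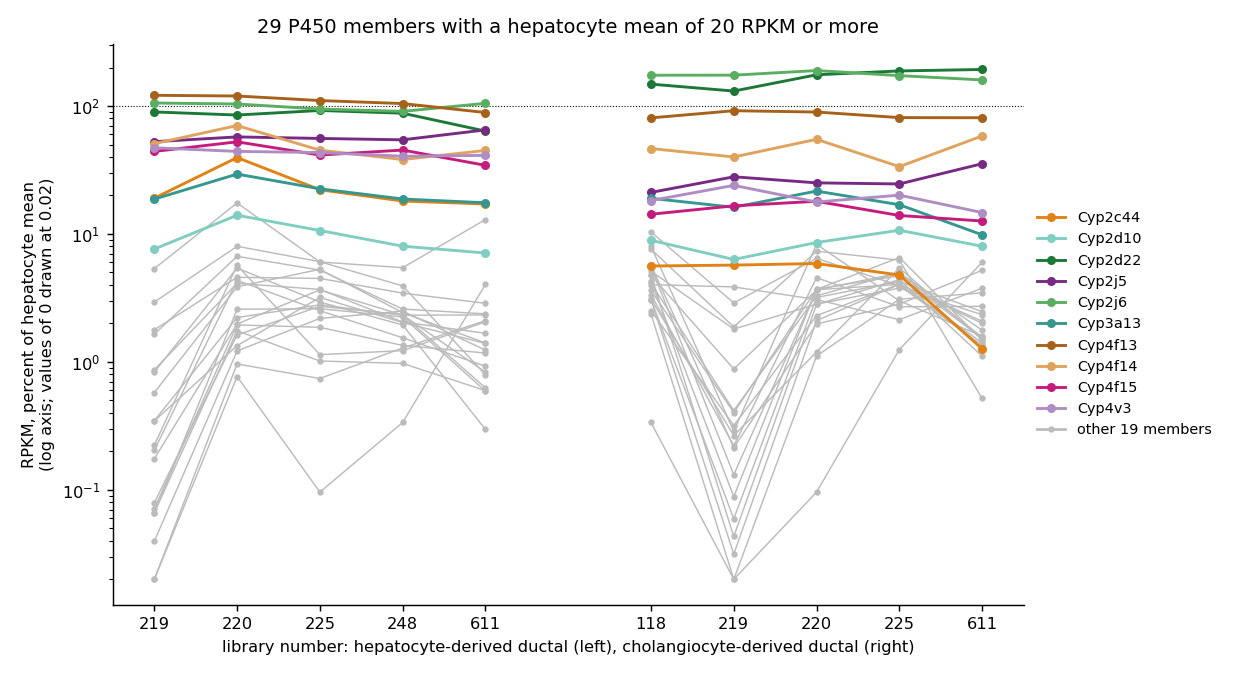
RPKM of 29 members in each ductal library as a percentage of the hepatocyte mean (log axis, values of 0 drawn at 0.02), with 10 members in colour and 19 in grey. The grey lines share a dip at library 219 in both ductal groups, to medians of 0.223% and 0.266%, which Cyp4f13 and Cyp2j6 do not share. Cyp2d22 is lowest of its group in cholangiocyte-derived library 219, but only at 131% against 148 to 193%.

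Hepatocyte library 611 differed from the other 3 hepatocyte libraries in many members. Of 53 members at 1 RPKM or more in library 611 or in the mean of the others, it lay above their range for 27, below for 12 and within for 14. It was at least 5-fold above their mean for 9 members and 5-fold below for 2. As single libraries are compared, no test was made. Cyp2b9 was 82.4 RPKM against 0.15 to 0.38, Cyp2c69 35.2 against 0 to 0.05 and Cyp2c40 24.5 against 0.07 to 0.14. Cyp3a44 was 2.27 against 0.05 to 0.07, and Cyp2b13 2.02 against 0 to 0.07. These 5 genes are known as female-predominant in mouse liver. Cyp2c37, Cyp2c68, Cyp4a10 and Cyp4a14 made up the 9, at 113 against 14.2 to 18.6, 169 against 27.5 to 35.8, 38.9 against 3.91 to 7.01 and 16.8 against 2.13 to 4.44 RPKM.

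The members below were Cyp2d9, at 52.3 RPKM against 359.8 to 662, and Cyp2a5, at 264 against 875 to 2495. Cyp4a12a, another male-predominant gene that the rule left out, was 0.56 against 45.3, 19.9 and 9.94. Not every gene looked up stood apart this far. Cyp3a41a and Cyp3a41b, also left out, were each 0.05 against 0.02 to 0.04, with 98.6% and 93.5% of windows shared. Cyp2a4, a member, was 227 against 21.6 to 194. The regulator Cux2, female-specific in mouse liver, was 4.24 in library 611 and at most 0.07 in the others. In the ductal libraries 611 the pattern was mixed. Cyp2b9 was 0.84 and 1.25 RPKM there and at most 0.16 and 0.26 in the other libraries of each group, and Cyp2c69 was 0.47 and 0.42 against at most 0.29 and 0.1. Cyp2c68, Cyp4a10 and Cyp4a14 were not the highest in library 611 of either ductal group, nor was Cyp2c40 in hepatocyte-derived or Cux2 in cholangiocyte-derived cells. The Y-linked genes named above were low in the same 3 libraries. Without these 3 libraries, 40 members were tested, because the 7 that had entered through hepatocytes alone left the test. Of the 40, 5 were higher and 29 lower in hepatocyte-derived cells, 7 higher and 30 lower in cholangiocyte-derived cells, and 10 higher and 4 lower between the ductal groups. Over all 12456 tested genes the counts were 8009 and 1836, 8167 and 2114, and 1707 and 2489.

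**Figure D5:**
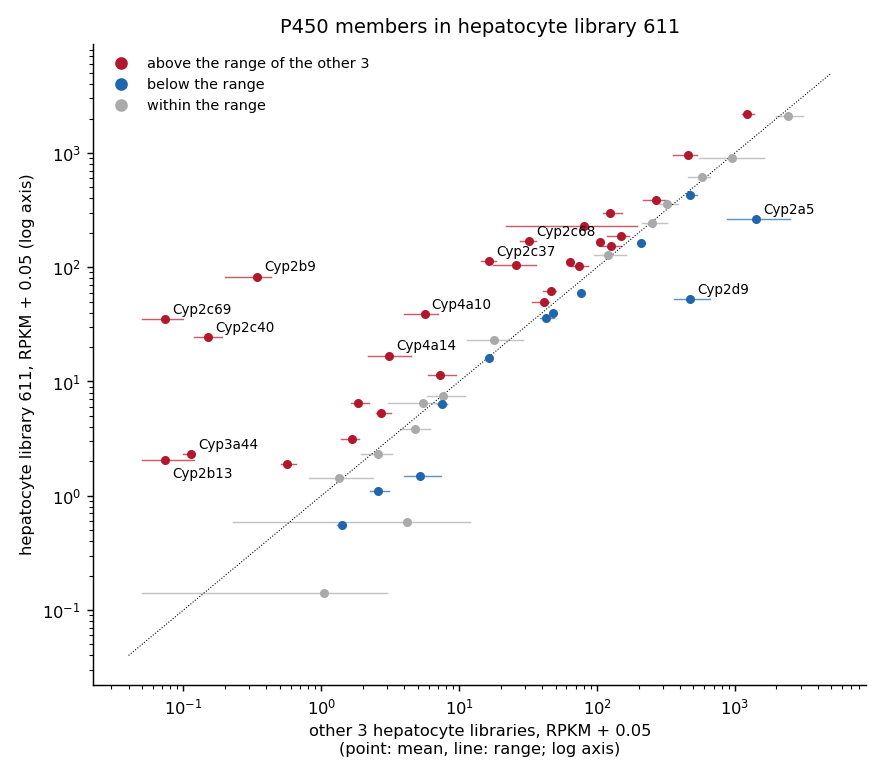
RPKM + 0.05 of 53 members in hepatocyte library 611 against the mean (point) and range (line) of the other 3 hepatocyte libraries, both on log axes, with the line of equality dotted. Cyp2b9, Cyp2c69 and Cyp2c40 lie far above the dotted line and Cyp2d9 and Cyp2a5 below it.

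The oxidoreductase that serves the P450 enzymes differed less than their summed level. Of 7 listed partners 6 were in the table and tested, and 5 were lower in each ductal group (14.8% and 17.4% of all tested genes were), with 1 (Pgrmc2) not called. Por, which supplies electrons to all microsomal P450 enzymes, was 225, 128, 136 and 153 RPKM in hepatocytes, 68.1, 94.3, 71.9, 62.4 and 55.1 in hepatocyte-derived and 63.1, 54.1, 54.8, 58.6 and 48 in cholangiocyte-derived ductal cells (-1.16 ± 0.17 and -1.48 ± 0.17). Pgrmc1, a haem-binding partner, had means of 1172, 273 and 195 in the same order, and Alas1, the first enzyme of haem synthesis, 187, 20.9 and 20.8. Por was therefore within 3-fold of hepatocytes by mean, while the summed members were over 10-fold lower.

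Against hepatocytes, for which the shares of all tested genes are those given above (66.2% and 67.1% higher, 14.8% and 17.4% lower), 8 of the 21 tested regulators were higher in hepatocyte-derived ductal cells and 9 were lower, and 7 were higher and 10 lower in cholangiocyte-derived ones. Hnf4a, a master regulator of liver genes, was 215, 248, 244 and 238 RPKM in hepatocytes, 152, 134, 156, 129 and 80.7 in hepatocyte-derived and 57.4, 74, 61.3, 54.7 and 44.3 in cholangiocyte-derived ductal cells. The 3 groups were separate, and the values gave log2 fold changes of -0.89 ± 0.18, -2.02 ± 0.18 and, between the ductal groups, 1.13 ± 0.17. The receptors that induce families 1 to 3 were looked at after the counts were known. CAR (Nr1i3) had means of 47.5 ± 15.2, 1.44 ± 0.501 and 2.34 ± 1.1 in hepatocytes, hepatocyte-derived and cholangiocyte-derived ductal cells, PXR (Nr1i2) 39.5 ± 3.06, 23.1 ± 2.29 and 18.1 ± 1.47, and Ahr 22.5 ± 8.11, 25.5 ± 4.49 and 46.4 ± 1.36. CAR was lower, with log2 fold changes of -4.29 ± 0.27 and -3.88 ± 0.27, and so was PXR, with -0.76 ± 0.09 and -1.08 ± 0.09. Ahr was higher in cholangiocyte-derived cells by 1.08 ± 0.19, against a median of 0.76 over all tested genes, and was not called in hepatocyte-derived ones. The stress regulator Nfe2l2 was higher in both, with means of 47.7 ± 9.7, 151 ± 17.8 and 150.2 ± 17.4.

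Other oxidising enzymes were mostly lower too. Of 8 tested genes for flavin monooxygenases, epoxide hydrolases and aldehyde oxidases, 6 were lower and 1 higher in hepatocyte-derived, and 7 lower and 1 higher in cholangiocyte-derived ductal cells, against the same shares of all tested genes. Between the ductal groups 7 were higher in hepatocyte-derived cells (15.1% of all tested genes were). The higher one against hepatocytes was Fmo2, a flavin monooxygenase known from lung, with means of 7.56 ± 3.71, 78.1 ± 3.5 and 45.4 ± 15.1 RPKM in hepatocytes, hepatocyte-derived and cholangiocyte-derived ductal cells. Ephx2, which hydrolyses the epoxides that Cyp2c44 and Cyp2j enzymes make, was 305 ± 74, 127 ± 25.4 and 41.4 ± 11.7. Among 14 tested P450 genes of families 5 and above, which include bile acid and sterol enzymes, 8 were lower in each ductal group (14.8% and 17.4% of all tested genes), 3 were higher in hepatocyte-derived and 4 in cholangiocyte-derived cells (66.2% and 67.1%). Cyp27a1, a sterol hydroxylase of bile acid synthesis, had means of 180.4 ± 22.5, 33.1 ± 6.27 and 9.02 ± 3.00, and Cyp39a1, an oxysterol hydroxylase, was higher in hepatocyte-derived cells at 39.4 ± 3.25 against 19.2 ± 1.86 in cholangiocyte-derived cells and 17.5 ± 3.87 in hepatocytes.

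Sequence sharing limits what single members can show. Of 68 members matched to a GENCODE transcript, 59 had at least 1 window of 50 bases that recurs in another gene, 35 had more than 10% of windows shared and 3 more than 50%. The 3 were Cyp2c40 (72.1%), Cyp2c69 (54.8%) and Cyp2c67 (52.8%), so the values of Cyp2c40 and Cyp2c69 in hepatocyte library 611 may share reads. Sharing was 46.8% for Cyp4a32, 40.5% for Cyp2d10, 29% for Cyp2d9 and 14.8% for Cyp3a11. Cyp2c44 was the member without a matched transcript, so its sharing is not given. Among other members that differed between the ductal groups, sharing was 0% for Cyp2s1 and Cyp1b1, 2.45% for Cyp4f15, 0.422% for Cyp2j6 and 7.02% for Cyp4v3. The kit does not mark strand, so a gene's own reads and those of an antisense gene over it cannot be told apart.

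The remaining tested members of Cyp2a, Cyp2c and Cyp2d were all lower in both ductal groups than in hepatocytes. Among them, Cyp2a22, Cyp2c38, Cyp2d12 and Cyp2d40 entered the test through hepatocytes alone. Cyp4f18, the leukotriene hydroxylase of myeloid cells, was not called in either and was listed at 0 in both ductal libraries 219. With library weights or a replicate block it was called higher in both ductal groups than in hepatocytes. In cholangiocyte-derived cells it was also called higher without hepatocyte library 118, without cholangiocyte-derived library 219 or without both ductal libraries 219. Its values were 0, 0.76, 0.99, 1.12 and 0.68 RPKM in hepatocyte-derived ductal cells, 4.41, 0, 1.7, 1.25 and 1.65 in cholangiocyte-derived ductal cells and 2.96, 0, 0.05 and 0.09 in hepatocytes, highest there in library 118, the one with high macrophage markers. Among the untested members, Cyp2j13, Cyp4x1 and Cyp2c65 had their highest mean in cholangiocyte-derived ductal cells, at 0.358, 0.298 and 0.452 RPKM, and Cyp2j13 and Cyp4x1 were listed at 0 in all hepatocyte libraries. Levels this low were not tested and carry no call. In all, 14 members did not reach 1 RPKM in any library.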

How the data were processed

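RNA of sorted cells was sequenced in 14 libraries (TruSeq RNA v2, which does not mark strand, per the labels' protocols). The authors deposited RPKM values for 26005 transcript rows on mm9. CASAVA and Bowtie 0.12.7 are named in the submitters' processing notes, and the rule for reads that match several genes is not given in the sources used here. No counts were used and the depth is unknown. The row with the highest mean was kept per symbol. The 12638 symbols that reached 1 RPKM in 4 or more libraries were tested with limma 3.58.1 in R 4.3.3 on log2(RPKM + 1), with a mean-variance trend, group means, two-sided tests and Benjamini-Hochberg adjustment over all tested symbols. All 14 libraries entered one fit, and a member is called at an adjusted p under 0.05. A fold change on this scale understates that of low genes. The columns numbered 220 were tied to their group only. Sums have no test.

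Members were named by rule: the highest member of each subfamily in hepatocytes, members called higher in ductal cells, members with a ductal mean of at least 5 RPKM, the 3 most changed each way between ductal groups, and members of Cyp1a, Cyp1b, Cyp2b, Cyp3a and Cyp4a with a group mean of at least 1 RPKM. Others named were chosen after their values were seen. The members and lists were chosen with earlier results of these data known. The fit was tested on simulated data. Shared windows were counted between GENCODE vM21 transcripts, and promoters were read from RefSeq (GRCm38.p6). Alternatives were pseudocounts of 0.1 and 5, a filter of 5 RPKM and none, rescaling, quantile normalization, library weights, a replicate block, 2-group fits and leaving out libraries.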

Additional observations from a re-analysis of the deposited data

Results flagged for a closer look

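In 15 of 123 groups of values tested, 1 library lay far from the others of its group by Dixon's criterion, which chance alone meets in about 1 of 20 groups. Hepatocyte library 611 accounted for 7. There Cyp2b9 was 82.39 RPKM (0.15 to 0.38 in the other hepatocytes), Cyp2c68 169.03 (27.48 to 35.84), Cyp4a10 38.94 (3.91 to 7.01), Cyp4a14 16.77 (2.13 to 4.44), Cyp2b10 110.89 (62.06 to 64.65), Cyp4f14 166.85 (102.97 to 106.93) and Cyp2j6 40.08 (47.83 to 48.43). The ductal libraries numbered 611, which lacked Y-linked transcripts as hepatocyte library 611 did, held 4 more. Cyp2b9 was 0.84 RPKM in hepatocyte-derived library 611 (at most 0.16 in the others) and 1.25 in cholangiocyte-derived library 611 (at most 0.26). Cyp2d22 was 45.92 in hepatocyte-derived library 611 (61.32 to 66.57), and Cyp2c44 was 1.68 in cholangiocyte-derived library 611 (6.34 to 7.8).

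In the other libraries, Cyp4b1 was 11.96 RPKM in hepatocyte library 118 (0.18 to 0.54), the library with high macrophage, endothelial and stellate markers. Cyp2c44 was 52.48 in hepatocyte-derived library 220 (22.77 to 29.42), Cyp2c70 was 2.03 in hepatocyte-derived library 219 (12.98 to 16.33), and Cyp4a14 was 0.57 in hepatocyte-derived library 225 (0 to 0.04). The source of these values was not tested, while fits without each of these libraries were among the alternatives.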

How the results depend on the processing

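Scaling moved the counts of higher members most. Against hepatocytes, members higher in hepatocyte-derived cells numbered 3 after rescaling by median ratios, 2 under quantile normalization and 8 with library weights, and in cholangiocyte-derived cells 1 and 3 under the first 2. Library weights gave 7 lower members between the ductal groups. Over all genes, median ratios and quantile normalization gave 4670 and 4596 higher and 4613 and 4136 lower in hepatocyte-derived cells, and 5050 and 4891 higher and 4821 and 4769 lower in cholangiocyte-derived cells. Between the ductal groups 3069 genes were higher under quantile normalization and 2987 with library weights. The hepatocyte sum became 15727 and 7030.2 RPKM. Signs of values called in either fit turned as follows. In hepatocyte-derived cells against hepatocytes, median ratios gave -0.79 for Cyp2j6, -0.42 for Cyp2u1 and -0.67 for Cyp4f13, and quantile normalization gave -0.17, -0.88 and, for Cyp2j9, -0.11. In cholangiocyte-derived cells median ratios gave -0.10 for Cyp2d22, -0.0371 for Cyp2j6 and -0.0288 for Cyp2j9, and quantile normalization gave -0.18 for Cyp1b1, -0.37 for Cyp2j9 and -0.15 for Cyp4f17. These methods centre the genes, whose median was 0.67 and 0.76 as deposited.

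Leaving out 1 library at a time gave 5 to 6 higher and 29 to 36 lower members in hepatocyte-derived cells, 6 to 9 and 28 to 37 in cholangiocyte-derived cells, and 9 to 10 and 4 to 5 between the ductal groups. Over all genes the ranges were 8152 to 8682 and 1750 to 1884, 8260 to 8789 and 2061 to 2196, and 1603 to 2385 and 2299 to 3296. Sums ranged from 677 to 758 RPKM in hepatocyte-derived cells, 732 to 843 in cholangiocyte-derived cells and 9556 to 11095 in hepatocytes. Leaving out any hepatocyte library removed from the test the 7 members that passed through hepatocytes alone. Without hepatocyte library 118 and cholangiocyte-derived libraries 118 and 220, the counts were 6 and 28, 7 and 27, and 9 and 3. Leaving out the ductal libraries 219 or all libraries 611 was chosen after seeing the data.

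The labels do not say that library numbers pair the samples. Deviations of 8 of 9 same-numbered pairs correlated above 0.1 (0.0208 to 0.797) and 9 of 12 libraries correlated best with their own number, which hints at shared sources but fell short of the criterion that every pair exceed 0.1. With the number as a replicate block, in 12 libraries, the counts were 7 higher and 36 lower, 8 and 37, and 9 and 5, and Cyp2a5 was then called lower in hepatocyte-derived than in cholangiocyte-derived cells (-1.27, adjusted p = 0.00471). Of 2838 values of named members under all alternatives, 2699 kept their call and sign, 29 gained a call, 38 lost one and 72 turned sign, 60 of them called in neither fit. The depth of the libraries is unknown, so the precision of low values cannot be stated.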
